A study of Mus musculus with 6 samples.

Results

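The genes described here encode the actins of non-muscle cells and a set of proteins that bind actin. They were Actb, Actg1, Tmsb4x, Tmsb10, Cfl1, Pfn1, Coro1a, Lcp1, Capg and Gsn, taken by gene name from the deposited gene table. All 10 genes were among the 26428 genes of that table, and all 10 were among the 14797 genes with enough counts to be tested. RNA was sequenced from mouse alveolar macrophages of the lung, in 3 libraries labelled Rack1{delta}Mye, called knockout here, and 3 libraries labelled Rack1F/-, called control here. The series describes the first genotype as a myeloid knockout of Rack1, a scaffold protein that also sits on the small ribosomal subunit. The labels name neither the Cre driver nor the age of the mice, do not say what the second allele of a control mouse is or whether it carries Cre, and do not say whether the libraries came from separate animals. P-values therefore measure the spread between these libraries, which may be technical.

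Actin cycles between monomers and filaments. Thymosins hold monomers in reserve and profilin feeds them to growing ends. Cofilin and gelsolin cut filaments, coronin works beside cofilin and the Arp2/3 branching complex, and plastin bundles filaments. In macrophages these proteins drive crawling, spreading and the engulfment of particles.

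The libraries held 51894849 to 56082536 deposited count units in the knockout group and 54871157 to 66163430 in the control group. Levels are given as CPM, deposited count units scaled for library size, after scaling by TMM, a method that sets libraries to a common middle of gene ratios. Levels are compared between genes only as FPKM, which allow for depth and gene length. Rack1 itself was at 38.6, 38.2 and 34.1 CPM in the knockout libraries, against 77.3, 83.5 and 81.1 CPM in the control libraries. It was 2.18-fold lower in knockout (edgeR quasi-likelihood test, p adjusted by Benjamini-Hochberg = 0.000207), so RNA of this gene remained in the knockout libraries. Across all tested genes 878 were higher and 889 lower in knockout at an adjusted p under 0.05. When libraries were scaled to their totals instead, 290 were higher and 933 lower, and the median log2 fold change of all genes moved by -0.32. Folds of the most abundant genes are therefore read relative to that median and, further on, as ratios within a library.

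The pattern over the 10 genes was not uniform. Gsn and Actg1 rose and Coro1a fell in knockout macrophages, and the other 7 genes did not pass the test. Thus 2 of 10 genes were called higher, against 5.93% of all tested genes, and 1 of 10 was called lower, against 6.01%. With the libraries scaled to their totals, 1 of 10 was higher (Actg1), against 1.96% of genes, and 3 were lower (Coro1a, Tmsb4x and Tmsb10), against 6.31%. Limma on log2(FPKM + 1) made the same 4 calls, against 2.86% and 13.9% of its genes. DESeq2 called 4 of 10 higher (Actb, Actg1, Lcp1 and Gsn), against 5.95%, and Coro1a lower, against 6.42%. Actg1 and Coro1a were called by all of these. The median log2 fold change was 0.13 over the 10 genes and 0.01 over all tested genes. In bulk RNA a difference in the make-up of the cells and a difference in RNA per cell cannot be told apart.

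**Figure D1:**
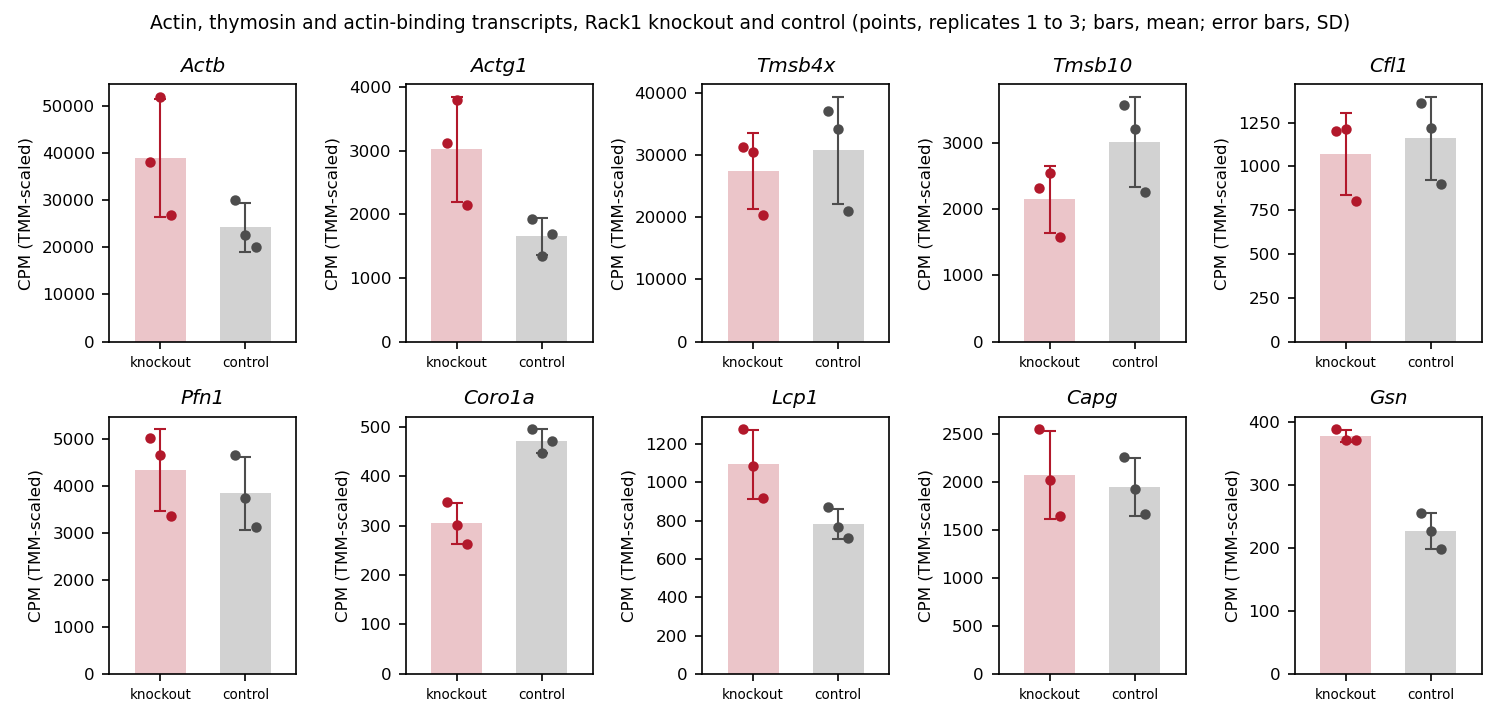
Levels of the 10 genes in CPM after TMM scaling (vertical axes, linear, from 0), knockout left and control right; points are replicates 1 to 3, bars the mean and error bars the SD (n = 3 each). Gsn, Actg1 and Lcp1 lie wholly above the controls and Coro1a wholly below, and the other 6 genes overlap.

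Actb encodes beta-actin, the main actin of non-muscle cells, and lies at chr5:142903115-142906754 on the minus strand of GRCm38 (GENCODE M21). It was at 38089, 51885 and 26919 CPM in the knockout libraries, against 29945, 22664 and 20033 CPM in the control libraries. The first and second knockout libraries lay above every control, but the third lay below the highest control, so the groups overlapped. The means were 38965 ± 12506 CPM in knockout and 24214 ± 5134 CPM in control (SD, n = 3 each). The log2 fold change was 0.69 ± 0.33 (SE), and it did not pass the test (edgeR, adjusted p = 0.220). DESeq2 on the same counts did call Actb higher, with an adjusted p of 0.00956. By FPKM it stood between rank 6 and rank 7 of all genes in every library, at 10935, 14714 and 10311 FPKM in knockout against 10150.4, 8909 and 9209 FPKM in control. On that scale the groups did not overlap. Non-overlap in this direction was found for 5.08% of tested genes by FPKM and for 15.3% by TMM-scaled CPM, and in the other direction for 23.4% and 15.9%.

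Actg1 encodes gamma-actin, which differs from beta-actin at a few residues of the amino terminus, and lies at chr11:120345690-120348542 on the minus strand. It was at 3112, 3796 and 2153 CPM in the knockout libraries, against 1925, 1340.0 and 1690.3 CPM in the control libraries. Every knockout library exceeded every control library, by the least in the third. Actg1 was 1.83-fold higher in knockout, with a log2 fold change of 0.87 ± 0.24 (SE; edgeR, adjusted p = 0.0377). The call was kept without the third knockout library, but the adjusted p was 0.0945 and 0.135 without the first and the second knockout library, and 0.0743, 0.151 and 0.0845 without control libraries 1, 2 and 3 in turn. A processed pseudogene, Gm12715, matches the Actg1 transcript at 99.6% identity and carried 11.1% to 12.2% as many units as Actg1 in knockout and 10.7% to 12.4% in control. Reads of such copies may be split between them, and their proportion overlapped between the groups.

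The ratio of gamma- to beta-actin by FPKM was 0.0823, 0.0737 and 0.0806 in knockout against 0.0648, 0.0596 and 0.085 in control. These ranges overlapped, and beta-actin RNA exceeded gamma-actin RNA by more than 10-fold in all 6 libraries. The muscle actins were near the lower limit of the table. Acta2, the smooth muscle actin, was at 3.14, 3.21 and 2.49 CPM in knockout against 5.10, 3.53 and 3.45 CPM in control. Its log2 fold change of -0.45 did not pass the test (edgeR, adjusted p = 0.303). The 7 smooth muscle markers summed to 3.49 to 4.56 CPM in knockout and 6.05 to 12 CPM in control, and Tagln and Myh11 had no count in any knockout library.

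The actin genes are textbook targets of serum response factor, which binds the CArG box. The RefSeq promoter windows of GRCm38.p6, 250 bases before to 50 after a start site, were searched on both strands for the CArG box and for TATAAA. A CArG box lay in 535 of 32851 windows (1.63%), and among 15 windows of 9 of the 10 genes only 1, that of Actg1, held it. Its first base is 90 bases before the RefSeq start site of Actg1, which lies inside the GENCODE gene given above. Actb had no window and was not searched. TATAAA lay in 13.6% of all windows and in none of these 15. The stretches upstream of the 3 genes that passed the test, ending outside their GENCODE limits, are shown in the direction of the gene, for Actg1 at chr11:120348543-120348645 (minus strand), for Coro1a at chr7:126704817-126704966 (minus strand) and for Gsn at chr2:35256209-35256358 (plus strand). Capitals mark the CArG box, and a match is no evidence of binding.
Actg1: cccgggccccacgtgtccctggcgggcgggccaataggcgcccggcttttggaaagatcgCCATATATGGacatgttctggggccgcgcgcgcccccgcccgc
Coro1a: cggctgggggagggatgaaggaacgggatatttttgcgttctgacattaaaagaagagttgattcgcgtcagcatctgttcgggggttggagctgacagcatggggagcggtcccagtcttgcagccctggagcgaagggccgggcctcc
Gsn: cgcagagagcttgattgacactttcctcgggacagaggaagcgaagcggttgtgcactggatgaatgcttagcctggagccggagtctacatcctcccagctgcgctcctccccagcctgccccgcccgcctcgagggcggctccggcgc

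The thymosins showed values in the other direction from the actins, and whether they were called depended on the scaling. Tmsb4x, at chrX:167207093-167209315 on the minus strand, encodes thymosin beta 4, the main monomer-holding peptide of white blood cells. It was at 31277, 30576 and 20426 CPM in the knockout libraries, against 37169, 34215 and 21034 CPM in the control libraries. The third library was low in both groups, and the ranges overlapped. The log2 fold change was -0.17 ± 0.32 (SE; edgeR, adjusted p = 0.807). By FPKM, Tmsb4x was at 17546, 16944 and 15288 in knockout against 24619.8, 26281 and 18895 in control, with no overlap. Scaled to library totals, its log2 fold change was -0.49 and passed the test (edgeR, adjusted p = 0.00999579). Relative to the median of all genes that is -0.18, the same as under TMM.

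Tmsb10, at chr6:72957347-72958488 on the minus strand, encodes thymosin beta 10, a close relative of thymosin beta 4. It was at 2314, 2555 and 1587 CPM in the knockout libraries, against 3576, 3219 and 2257 CPM in the control libraries. The first and second knockout libraries exceeded the third control library, and otherwise the knockout values were the lower ones. The log2 fold change was -0.49 ± 0.24 (SE; edgeR, adjusted p = 0.235), and on library totals it was -0.82 and passed the test (edgeR, adjusted p = 0.00101). Relative to the median of all genes it was -0.50 under TMM and -0.51 on library totals.

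Pfn1, at chr11:70651850-70654644 on the minus strand, encodes profilin 1, which delivers monomers to filament ends. It was at 5013, 4655 and 3364 CPM in the knockout libraries, against 4658, 3753 and 3121 CPM in the control libraries. The ranges overlapped over most of their span. The log2 fold change was 0.18 ± 0.23 (SE; edgeR, adjusted p = 0.704), and its sign was reversed, at -0.15, on library totals. Of the 9 tested genes of the monomer-binding list, which also holds twinfilins and cyclase-associated proteins, none passed the test in either direction.

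Cfl1, at chr19:5490455-5495201 on the plus strand, encodes cofilin 1, which severs aged filaments. It was at 1200.3, 1211 and 803 CPM in the knockout libraries, against 1362, 1221 and 899.8 CPM in the control libraries. The groups overlapped, with a log2 fold change of -0.12 ± 0.21 (SE; edgeR, adjusted p = 0.800). Its gene body shares 2967 bases with Snx32 on the other strand, but Snx32 did not exceed 0.878 FPKM in any library, against at least 289.5 FPKM for Cfl1.

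Gsn, at chr2:35256380-35307892 on the plus strand, encodes gelsolin, a calcium-dependent protein that severs filaments and caps their fast-growing ends. It was at 388, 372 and 371 CPM in the knockout libraries, against 255, 227 and 199 CPM in the control libraries. The knockout libraries were close to each other and all above the controls. The means were 377 ± 9.91 CPM in knockout and 227 ± 28.3 CPM in control (SD, n = 3 each). Gsn was 1.66-fold higher in knockout, with a log2 fold change of 0.73 ± 0.14 (SE; edgeR, adjusted p = 0.00699), and it stayed past the threshold in each of 6 fits that left out 1 library. On library totals the log2 fold change was 0.43 and the call was lost (edgeR, adjusted p = 0.156), although relative to the median of all genes it was 0.74, against 0.72 under TMM. The table carries 1 fixed length per gene, so the cytoplasmic and secreted forms of gelsolin were not told apart.

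Capg, at chr6:72544391-72562983 on the plus strand, encodes the gelsolin relative that caps filament ends without severing them and is abundant in macrophages. It was at 2552, 2020.0 and 1640.1 CPM in the knockout libraries, against 2261, 1924 and 1663 CPM in the control libraries. The groups overlapped, with a log2 fold change of 0.09 ± 0.21 (SE; edgeR, adjusted p = 0.852). On library totals the sign was reversed, at -0.24. Within the gelsolin list, Vil1 and Svil were called lower beside the higher Gsn. Vil1 encodes villin, known from intestinal microvilli, and had no count in any knockout library against 1.01, 0.665 and 0.968 CPM in control. Its levels were thus near the lower limit of the table in both groups.

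Coro1a, at chr7:126699773-126704816 on the minus strand, encodes coronin 1A, the coronin of white blood cells. It was at 347, 302 and 263 CPM in the knockout libraries, against 495, 446 and 471 CPM in the control libraries. All 3 knockout libraries lay below all 3 controls. The means were 304 ± 42.2 CPM in knockout and 471 ± 24.5 CPM in control (SD, n = 3 each). Coro1a was 1.55-fold lower in knockout, with a log2 fold change of -0.63 ± 0.14 (SE; edgeR, adjusted p = 0.0184), and -0.97 on library totals (edgeR, adjusted p = 0.00293). The call was lost without the second knockout library (adjusted p = 0.0607), the third knockout library (0.0595) or the first control library (0.0776), and held without each of the other 3. Its gene body shares 26 bases with Bola2 on the other strand.

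Lcp1, at chr14:75131101-75230842 on the plus strand, encodes L-plastin, the filament-bundling protein of white blood cells. It was at 1279, 1085 and 918 CPM in the knockout libraries, against 869, 769 and 711 CPM in the control libraries. The groups did not overlap, but the gap between the lowest knockout and the highest control was small beside the spread. The log2 fold change was 0.48 ± 0.17 (SE) and did not pass the test (edgeR, adjusted p = 0.1). DESeq2 called it higher, with an adjusted p of 0.0137, and on library totals the log2 fold change was 0.15 (edgeR, adjusted p = 0.553).

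**Figure D2:**
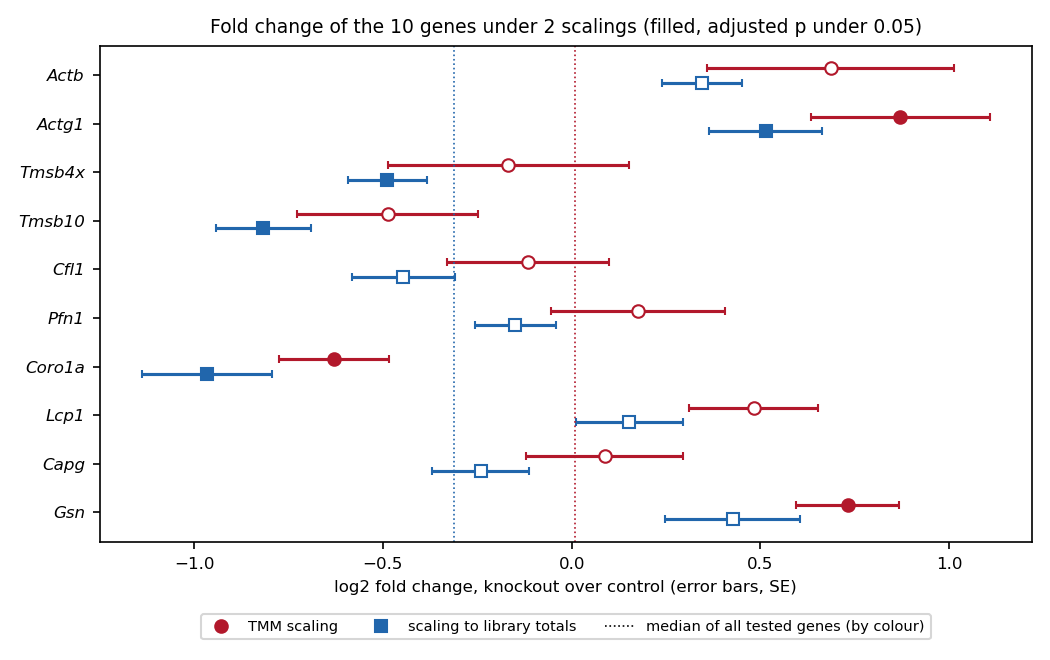
Log2 fold change of knockout over control for the 10 genes (horizontal axis, error bars SE, n = 3 each) from edgeR with TMM scaling (red circles) and with library totals (blue squares); filled symbols have an adjusted p under 0.05, and dotted lines mark the median of all tested genes under each scaling. Each gene moves left with the dotted line, by about 0.32, and Pfn1 and Capg change sign.

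Levels also moved together within a group. Under TMM scaling the third knockout library was the lowest of its group for all 10 genes, and the third control library was the lowest of its group for 8 of 10. These 2 libraries had the highest TMM factors of their groups, 1.09 against 0.799 and 0.819 in knockout and 1.30 against 0.961 and 1.12 in control. On library totals the third knockout library was lowest for 6 of 10 genes and the third control library for 5 of 10. The number of genes whose groups overlapped was 6 under TMM and 2 on library totals, where 3 lay higher and 5 lower in knockout. On library totals 5.09% of all tested genes lay wholly higher and 23.2% wholly lower.

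Ratios between the genes within a library do not depend on this scaling. The ratio of Coro1a to Lcp1 by FPKM was 0.928, 0.951 and 0.978 in the knockout libraries, against 1.95, 1.98 and 2.26 in the control libraries. Coronin 1A RNA was thus about level with L-plastin RNA in knockout and above it in control, a ratio 2.16-fold lower in knockout, and the groups lay far apart for their spread. Leaving out any 1 library kept the log2 difference between -1.15 and -1.04. How often other pairs of genes lie as far apart was not computed.

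Thymosin RNA, Tmsb4x and Tmsb10 summed, was 1.6, 1.17 and 1.49 times actin RNA, Actb and Actg1 summed, in the knockout libraries, against 2.51, 3.07 and 2.11 times in the control libraries. The highest knockout ratio was below the lowest control ratio, and the mean log2 difference of -0.85 is a 1.80-fold lower ratio. Profilin to actin was 0.135, 0.0931 and 0.129 in knockout against 0.163, 0.174 and 0.160 in control, 1.41-fold lower. Cofilin to actin was 0.0274, 0.0205 and 0.0260 in knockout against 0.0402, 0.0479 and 0.0390 in control, 1.73-fold lower. Thymosin, profilin and cofilin RNA were thus each lower relative to actin RNA in all 3 knockout libraries than in any control. Such a difference was common: the ratio of Actb to another gene was wholly higher in knockout for 29.8% of the genes compared. The genes compared were 13588 of the 14797 tested. It was wholly lower for 1.91%.

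The ratio of Capg to Gsn was 8.20, 6.79 and 5.52 in knockout against 11.1, 10.6 and 10.4 in control, 1.58-fold lower. Tmsb10 to Tmsb4x was 0.0795, 0.0898 and 0.0835 in knockout against 0.103, 0.101 and 0.115 in control, 1.26-fold lower. Of the 7 ratios computed, 6 did not overlap between groups and each of these had p = 0.1 in the exact two-sided permutation test, the smallest p that 3 against 3 libraries allow, or 0.117 after Benjamini-Hochberg adjustment over the 7 in the exact test. The ratio of Actg1 to Actb overlapped, with p = 0.4 in the exact test. None could pass a threshold of 0.05 in this design. The thymosin, profilin and cofilin ratios share the summed actins as denominator, so they are not independent. The share over all genes was computed for Actb alone, not for the summed actins. No share over all genes is given for the ratios without actin.

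**Figure D3:**
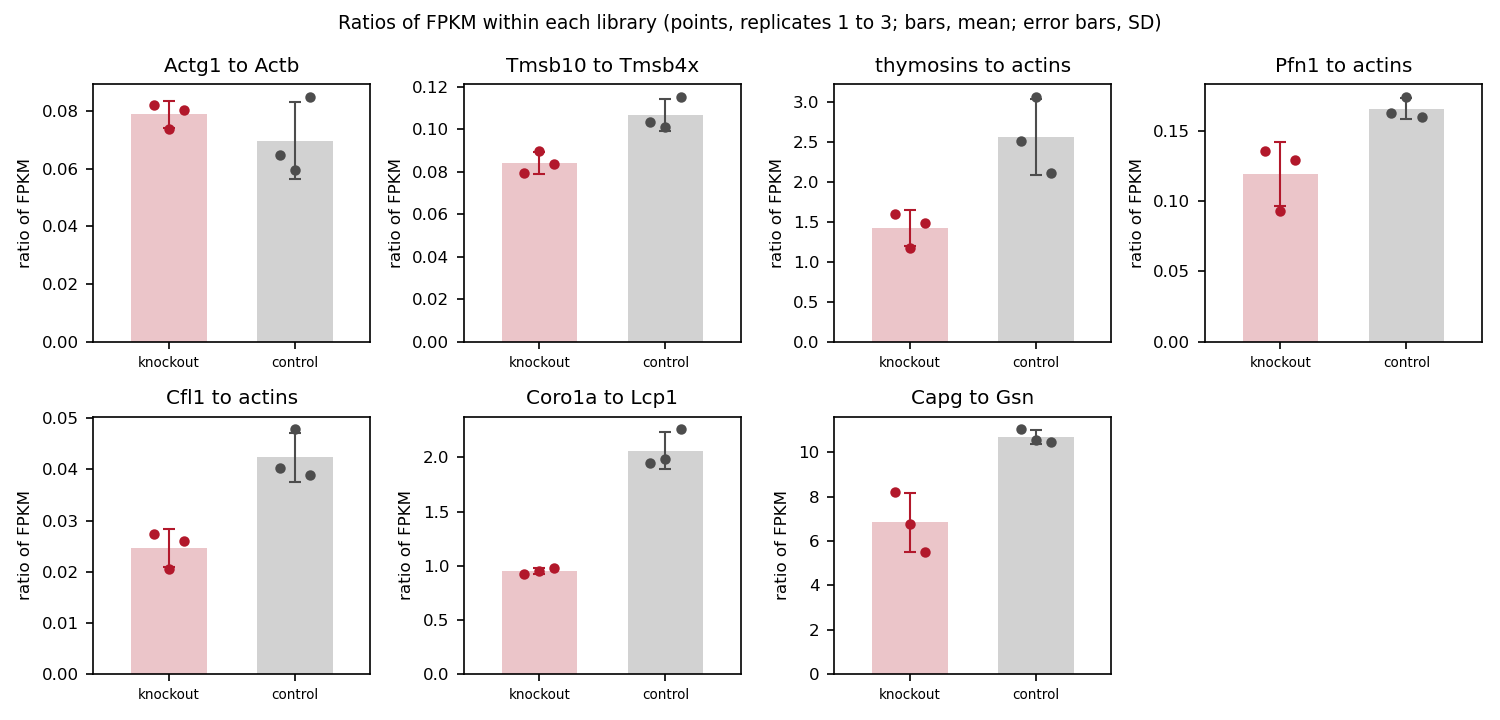
Ratios of FPKM between the genes within each library (vertical axes, linear, from 0), knockout left and control right; points are replicates 1 to 3, bars the mean and error bars the SD (n = 3 each). Only Actg1 to Actb overlaps between the groups, and Coro1a to Lcp1 is near 1 in knockout and near 2 in control.

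The 10 genes together held 6.58%, 7.01% and 5.97% of all FPKM in the knockout libraries, against 7.80%, 7.83% and 6.82% in the control libraries. The ranges overlapped, with a difference of -0.963 percentage points (exact two-sided permutation test, p = 0.2, n = 3 each). As a share of count units the difference was -0.427 points (exact two-sided permutation test, p = 0.6). By FPKM, Actb took 2.13%, 2.79% and 2.02% in knockout against 1.92%, 1.68% and 1.83% in control, and Tmsb4x took 3.42%, 3.21% and 3% in knockout against 4.65%, 4.94% and 3.76% in control. These shares did not overlap for either gene, in opposite directions.

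Actb is often used to scale RT-PCR results, and its ratio to 14 other common normalisers was computed after the values above had been seen. For 9 of the 14 the Actb ratio of each knockout library exceeded that of all controls, for 5 the groups overlapped, and for none was it lower throughout. Over the 13588 of 14797 tested genes that were compared, the same ratio was wholly higher for 29.8% and wholly lower for 1.91%. The ratio of Actb to Hprt, a purine salvage enzyme, was 164, 195 and 110.3 in knockout against 90.4, 55.2 and 65.2 in control, 2.21-fold higher. The ratio of Actb to Gapdh, a glycolytic enzyme, was 603, 916 and 242 in knockout against 513, 987 and 742 in control. The ratio of Actb to B2m, the light chain of class I molecules, was 2.19, 2.44 and 1.93 in knockout against 2.79, 2.01 and 2.89 in control, and both of these overlapped. Among these normalisers B2m was called higher, and Hprt, Sdha and Tfrc were called lower.

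The genes with the level pattern most like Actb over the 6 libraries were sought among 5289 genes of at least 10 CPM, by the root mean square difference of log2 CPM about each gene's own mean. The nearest were Gm15590 at 0.0901, Ftl2-ps at 0.0973 and Gapdh-ps16 at 0.0991. Gm15590 was at 388, 483 and 278 CPM in knockout against 284, 195 and 201 CPM in control, so the second knockout library was highest for it as for Actb. Gm15590 and Ftl2-ps match the ferritin light chain sequence Ftl1-ps1 at 99.5% and 99.1% identity, so their reads may be shared between copies.

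Around the 10 genes, 15 lists of the actin pathway held 132 further tested genes, of which 14 were higher and 12 lower in knockout at an adjusted p under 0.05 (edgeR). These are 10.6% and 9.09% of the 132, against 5.93% and 6.01% of all genes, and the median log2 fold change of the 132 was -0.07, against 0.01 for all genes. Of these 26 genes, 8 kept their call in each of 6 fits that left out 1 library, and 18 lost it without at least 1 library. The 8 were Pls3, Marcks, Cttn, Myo5a and Rac2 on the higher side and Coro6, Gmfg and Vil1 on the lower side. Of these, Vil1 was near the lower limit of the table in both groups. On library totals the calls of Marcks and Rac2 were lost and those of the other 6 remained.

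Pls3 encodes T-plastin, a relative of L-plastin found mainly outside white blood cells. It was at 12.9, 8.50 and 13.6 CPM in the knockout libraries, against 3.16, 1.48 and 3.22 CPM in the control libraries, 4.45-fold higher (edgeR, adjusted p = 0.00162). All knockout libraries exceeded all controls. By FPKM it was at 2.34, 1.52 and 3.29 in knockout, far under the 103, 86.7 and 99.1 of Lcp1 in the same libraries. Pls1, the plastin of epithelia, had no count in knockout against 0.440, 0.454 and 0.280 CPM in control, and was called lower. These levels of Pls1 were near the lower limit of the table. In the whole bundling list of 16 tested genes, 3 were higher and 2 lower.

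Coro6, a coronin known mainly from nerve and muscle, was at 1.96, 2.05 and 1.94 CPM in the knockout libraries, against 9.47, 11.8 and 10.01 CPM in the control libraries. It was 5.24-fold lower in knockout (edgeR, adjusted p = 4.24e-05). The coronin list thus held 2 lower genes, Coro1a and Coro6, and no higher gene among 7 tested. Coro1b, the coronin of most other cell types, was at 512, 472 and 404 CPM in knockout against 672, 608 and 613 CPM in control, with no overlap, but did not pass the test (edgeR, log2 fold change -0.45, adjusted p = 0.0753). It was called lower in 6 of 18 alternatives, among them DESeq2 (adjusted p = 0.00400) and library totals (adjusted p = 0.00699).

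Among genes that act on branched filaments, Cttn, which encodes the branch-stabilising cortactin, was 2.58-fold higher in knockout (edgeR, adjusted p = 0.00695). Gmfg, whose product removes branches, was at 145, 121 and 123 CPM in the knockout libraries, against 208, 223 and 186 CPM in the control libraries, 1.59-fold lower (edgeR, adjusted p = 0.00921). Of the 9 tested Arp2/3 subunit genes, only Arpc5 was called, lower. Arpc5 was at 514, 445 and 430 CPM in knockout against 711, 743 and 598 CPM in control.

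Myo5a, a cargo-carrying myosin, was at 10.7, 12 and 12.7 CPM in the knockout libraries, against 3.39, 2.11 and 4.77 CPM in the control libraries, 3.43-fold higher (edgeR, adjusted p = 0.00213). Rac2, the small GTPase of blood cells that steers actin assembly, was at 526, 426 and 465 CPM in knockout against 239, 216 and 287 CPM in control, 1.91-fold higher (edgeR, adjusted p = 0.00364). Both were clear of the controls in every library. Marcks, a membrane-bound filament cross-linker, was 3.05-fold higher (edgeR, adjusted p = 0.00816).

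The other 18 called genes were Ssh1, Ssh3, Aif1, Tpm1, Rock1, Msn, Lasp1, Rhog and Mrtfb on the higher side and Svil, Add3, Pls1, Iqgap2, Arpc5, Fmnl3, Vasp, Ezr and Vav1 on the lower side. Rock1 and Rhog lost their call whichever library was left out. Moesin (Msn) and ezrin (Ezr), which tether filaments to the membrane, had log2 fold changes of 0.55 and -0.46. The 9 on the higher side also lost their call on library totals, whereas of the 9 on the lower side only Vav1 did.

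**Figure D4:**
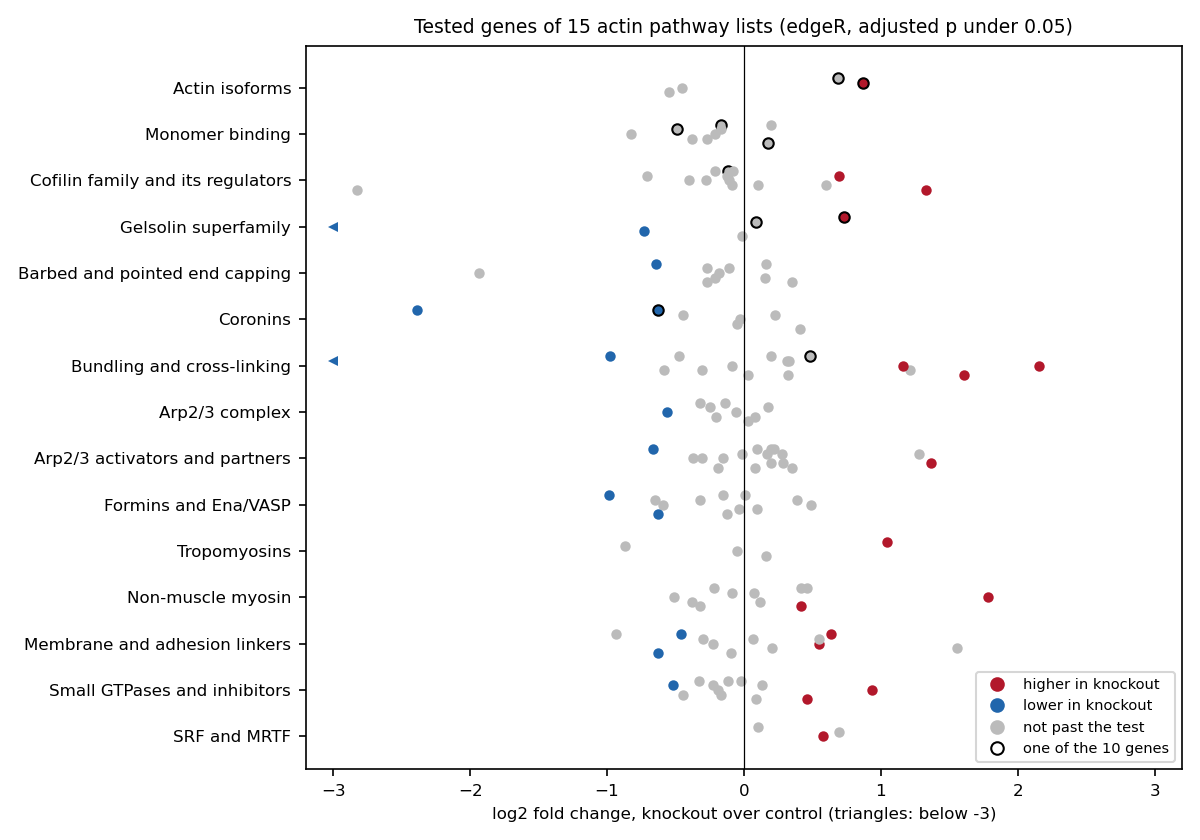
Log2 fold change of knockout over control (horizontal axis, TMM scaling) for every tested gene of 15 actin pathway lists (rows); red points were higher and blue points lower in knockout at an adjusted p under 0.05, grey points did not pass, black rings mark the 10 genes, and triangles mark 2 genes without a count in knockout, beyond -3. Called genes lie on both sides in the pathway as a whole.

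Markers of other cells were read beside these results, as sums of CPM. The 13 alveolar macrophage markers summed to 96200 to 168355 CPM in knockout and 82586 to 159505 CPM in control. Of these 13, Marco and Car4 were called higher, 4.31-fold and 5.75-fold, and Siglecf and Krt79 lower, 1.6-fold and 1.90-fold (edgeR). The 8 monocyte and interstitial macrophage markers summed to 369 to 539 CPM in knockout and 230.0 to 271 CPM in control, and C1qa, C1qb and C1qc of that list were called higher. The 8 neutrophil markers summed to 111 to 117 CPM in knockout and 39.1 to 62.9 CPM in control, with Ly6g, Camp and Elane at 0 in all knockout libraries. Of the 5 neutrophil markers tested, none was called higher and Ly6g was called lower (edgeR). The 8 platelet and red cell markers summed to 1111 to 1819 CPM in knockout and 168 to 1187 CPM in control. The 9 epithelial markers summed to 879 to 1535 CPM in knockout and 936 to 1326 CPM in control. Of that list Sftpc and Sftpa1 were called higher, and Epcam and Krt8 lower (edgeR). Gsn, Coro1a, Lcp1 and Rac2 are expressed by several of these cells, and the part of such cells in the differences above was not tested.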

How the data were processed

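For each gene and library the authors deposited both an estimated count (expected count) and FPKM, per the file headers. The sources used here do not say how the authors made the estimated counts. The submitters' processing notes list the tools HISAT2, StringTie, cutadapt and FastQC, the packages edgeR and DESeq2, and GRCm38 as the build. The labels' protocols give TRIzol extraction and a NEBNext Ultra library kit. They do not say that strand was kept. A read pair was worth about 4 deposited units, so the counts are not tallies of reads. They were tested all the same, as rounded whole numbers.

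Counts were filtered by filterByExpr, scaled by TMM and compared with the quasi-likelihood test of edgeR 4.0.16 without covariates; p-values were adjusted over 14797 genes by Benjamini-Hochberg at 0.05. On simulated counts for these 14797 genes the test recovered 49 of 100 genes changed 2-fold and 90 of 100 changed 4-fold, with 8 calls among 14597 unchanged genes. Alternatives used limma 3.58.1, DESeq2 1.42.0, other scalings and filters, and each library left out. Coordinates come from GENCODE M21, promoters from RefSeq. Pseudogene copies were found with blastn 2.17.0 at 90% identity over 80% of their length.

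Genes beyond the 10 were named by rule: from each list the first 2 symbols and up to 4 with the smallest p, all normalisers, and the 3 genes nearest Actb. Iqgap2, markers at 0, pseudogenes and overlapping genes were named after their values were seen. The 10 genes and all lists were chosen with earlier results of these data known.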

Additional observations from a re-analysis of the deposited data

How the results depend on the processing

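Over 45 named genes and 18 alternatives, 551 log2 fold changes kept their direction and their side of the threshold, 187 lost a call, 17 gained one and 13 had the other sign. Of the 10 genes, edgeR with TMM called 2 higher and 1 lower. Library totals gave 1 higher (Actg1) and 3 lower (Coro1a, Tmsb4x, Tmsb10), limma on log2(FPKM + 1) also 1 and 3, and limma on log2(FPKM + 0.1) 3 lower. Upper quartile scaling gave 1 higher, DESeq2 4 higher, and limma without a filter, over 26428 genes, 0 higher and 0 lower, with 3808 genes at an unadjusted p under 0.05. Of the other pathway genes, 3 were higher on library totals, 3 and 2 by limma with pseudocounts of 1 and 0.1, 7 by limma on FPKM over size factors and 0 by limma without a filter; 7 were lower among genes of at least 10 CPM and 4 by limma without a filter. Of all genes, 290, 223, 219 and 41 were higher on library totals, by limma with pseudocounts of 1 and 0.1 and without a filter, the last with 131 lower. Of the calls, 49.7% were on the higher side with TMM, against 23.7% on library totals and 17.1% by limma. The causes of these differences were not tested.

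Pfn1 was at -0.15 on library totals and in the 3 limma fits on FPKM. Capg was at -0.24 on library totals, -0.25 in those limma fits, -0.089 without knockout replicate 1 and -0.02 without control replicate 3. With 1 library left out at a time, Tmsb4x lay between -0.38 (without control replicate 3) and 0.0028 (without knockout replicate 3), Cfl1 between -0.27 (without control replicate 3) and 0.052 (without knockout replicate 3), with 0.0097 without control replicate 1, and Capg between -0.089 and 0.23 (without knockout replicate 3). Leaving out 1 library at a time gave 1 to 2 of the 10 genes higher and 0 to 1 lower, 8 to 9 other pathway genes higher and 5 to 9 lower, and 455 to 691 of all genes higher and 372 to 565 lower. The sign of each of the 7 log2 ratios was kept in those fits. Over all tested genes, same-numbered knockout and control libraries did not deviate together (correlations of 0.02759, -0.03975 and 0.0003287). Under TMM, however, replicate 3 was lowest for 10 of the 10 genes in knockout and 8 in control. The SE of Tmsb4x was 0.13 with a replicate block against 0.32 without, and that of Gsn 0.12 against 0.14. With a replicate block the count of the 10 genes called lower was 2, with Tmsb10 added, Lcp1 was called higher, Coro1b was called lower (adjusted p = 0.0477), and 770 of all genes were higher and 699 lower.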
